A study of Caenorhabditis elegans with 12 samples.

Results

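The nematode Caenorhabditis elegans has a family of ETS transcription factors, among them ETS-5. The regions described here were chosen by the positions of their windows, as those where the windows deposited for all 3 ETS-5 precipitates overlapped and whose centre lay inside the span of a protein-coding gene. They are called genic regions below, and the genes that hold them are called host genes. Any windows sharing at least 1 bp were merged across the 3 lists, which gave 5455 merged regions. Of these, 1788 held a window of every list, and 633 of the 1788 were genic regions. For the other 1155 shared regions the centre fell between such genes. Because these values chose the members, the share of 35.4% inside genes describes the choice and is not a result.

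The series is a chromatin immunoprecipitation and sequencing (ChIP-seq) study of whole-worm extracts, with worms grown on the bacterial food OP50. Its 12 samples form 4 groups of 3. These are the ETS-5 precipitate and its input, from strain FQ237 with ets-5 fused to green fluorescent protein (GFP), and the wild-type precipitate and its input, from strain N2. One antibody, against GFP, is named for every sample, inputs included. The 3 ETS-5 precipitates are used below, and the 9 other samples were not analysed here, so no value is a difference from wild type or input. The labels give no age or stage of the worms, no copy number of the tagged gene and no word on whether replicates came from separate cultures. The spread between replicates may therefore be technical. A whole-worm extract mixes all cell types, so a window does not say in which cells the DNA was bound.

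ETS factors bind DNA through a conserved ETS domain that recognises sites with a GGAA core. Binding sites of transcription factors lie in promoters upstream of genes and also in introns, where enhancers and start sites of alternative transcripts are found. In C. elegans, ets-5 is known for its role in the BAG neurons, head sensory neurons that respond to oxygen and carbon dioxide. The fate of these neurons and the expression of their sensory genes depend on it.

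The lists of replicates 1 to 3 are 3811, 2915 and 3697 windows long, each window 400 bp wide. No list carries a read count, height or p-value, so the depth behind a window is unknown. Window centres lay inside protein-coding genes for 39.0% of windows in replicate 1, 33.8% in replicate 2 and 36.9% in replicate 3 (36.6% ± 2.59, SD, n = 3). Genic regions took up 634, 633 and 634 windows of replicates 1 to 3, so nearly every region stood on a single window per list. The merged regions were 401 to 1252 bp wide, with a median of 448 bp. Positions below follow the files, with 1 added to each start as if the files were in BED style. The sources used here give no genome build for them, while gene spans came from the RefSeq table of WBcel235. Distances to gene ends rest on the assumption that the coordinates match.

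The tagged gene itself held the best placed genic regions. Lists were read in the order of their lines, whose meaning the sources used here do not give, and a low line number is called well placed. The region at chrX:5084088-5084488 stood at line 1 in all 3 lists, with its centre 237 bp from the nearer end of ets-5. A further one in the same gene, at chrX:5081167-5081594, stood at lines 2, 3 and 5 of replicates 1 to 3. The strain carries a tagged copy of ets-5, and the part of extra copies in these places was not tested.

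The third place by mean relative line, the line number as a percentage of the list, went to a region in F53F8.6 at lines 7, 24 and 88. Next came regions in cnp-2 at lines 21, 77 and 80 and in qua-1, a hedgehog-related gene needed for moulting, at lines 10, 67 and 120. The gene ast-1 followed with lines 31, 29 and 189. It encodes another ETS factor, known for the fate of dopamine neurons. The region in zfp-1, the homologue of the chromatin protein AF10, stood at lines 33, 34 and 240.

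The 20 best placed genic regions also included the following. The kinase gene sgk-1, of the insulin pathway, had lines 42, 73 and 410. The gene crh-2, which encodes a basic leucine zipper factor, had lines 39, 13 and 536. The gene vps-50, known for the maturation of dense core vesicles, had lines 152, 144 and 278. Regions in the collagen gene col-150, the hedgehog-related gene grd-1, the glutamate receptor gene glr-9 and the glutamine-rich pqn-41 were also among the 20. The remaining ones lay in Y105C5A.15, T28B11.1, W02B3.3, Y56A3A.7, Y43H11AL.1 and C03H12.1. Replicate 3 gave the highest line number of the 3 lists to most of these regions, with crh-2 the widest case.

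**Figure D1:**
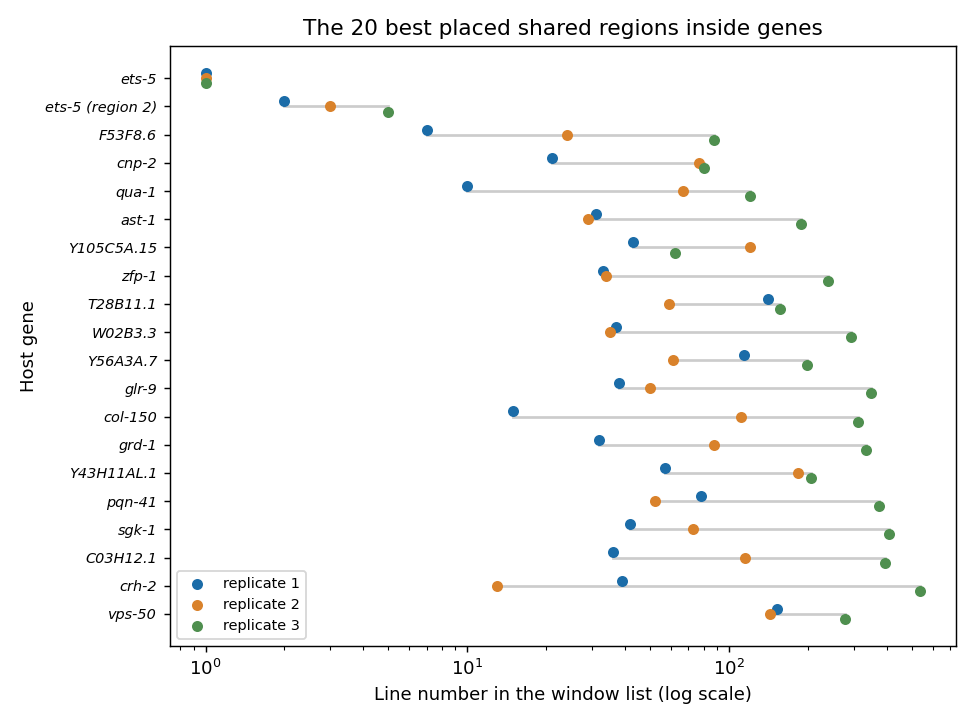
Line number in each of the 3 window lists, on a log axis, for the 20 genic regions with the lowest mean relative line. Each row is a region named by its host gene, points are the replicates and the grey line joins the lowest and highest. The 2 regions in ets-5 stand at lines 1 to 5, and the region in crh-2 stands at lines 39, 13 and 536.

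The placement of genic regions relative to other shared regions changed direction between the replicates. Their median relative line was 25.4%, 38.4% and 39.7% in replicates 1 to 3, against 29.3%, 35.6% and 35.1% for shared regions outside genes. The difference, genic minus other, was -3.86, 2.78 and 4.54 percentage points (mean 1.16 ± 4.43, SD, n = 3). An exact two-sided sign-flip permutation test over the 3 replicates gave p = 0.75, where 0.25 is the smallest it allows. With replicate 3 left out, regions shared by lists 1 and 2 were used, a larger set with 895 genic regions. The differences were then -3.80 and 1.54 points in replicates 1 and 2, with a mean of -1.13. In the first 10% of every list stood 19 genic regions, or 3.002% (exact 95% binomial interval 1.82% to 4.65%), against 57 other shared regions, or 4.94% (3.76% to 6.35%). Intervals of this kind cover counting error only and treat regions as independent.

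The distance between the lists' window centres was similar in genic and in other shared regions. Both groups were chosen by the overlap of windows of the 3 lists, which limits these distances. Between replicates 1 and 2, window centres of a genic region lay a median of 22 bp apart, against 21 bp for other shared regions. For replicates 1 and 3 the medians were 33 bp in genic and 30 bp in other shared regions, and for replicates 2 and 3 they were 35 and 29 bp. The order of lines was similar in replicates 1 and 2 and less so in replicate 3. Across the 633 genic regions, Spearman's rho of the line numbers was 0.82 for replicates 1 and 2. It was 0.43 for replicates 1 and 3 and 0.37 for replicates 2 and 3, as descriptions across regions of the same 3 libraries.

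Some genic regions stood far apart in the lists. A region in mnk-1, which encodes a kinase acting downstream of MAP kinases, was at lines 2980 and 2446 of replicates 1 and 2 but at line 167 of replicate 3. Regions in trip-4 (lines 3302, 2662 and 83), in let-805, a gene of muscle attachment to the skin (3738, 2884 and 518), and in hrg-11.4 (3729, 2523 and 511) showed the same order. The opposite held for jip-1, which encodes a scaffold of JNK signalling, at lines 630, 488 and 3396. It also held for unc-41, an endocytosis gene of the stonin family (644, 626 and 3418), for cah-4, a carbonic anhydrase gene (976, 509 and 3485), and for a region shared by nhr-27 and rgs-2 (301, 654 and 3295).

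The 633 genic regions lay in 512 host genes, which is 2.56% of the 19971 protein-coding genes of the 6 nuclear chromosomes. A single host was found for 614 regions, and 19 regions lay in 2 overlapping genes. Host genes were long. Their median length was 8592 bp, with quartiles of 4897 and 14126 bp, against a median of 1964 bp for genes without a genic region and 2006 bp for all protein-coding genes. The full lists, which include the windows of the genic regions, gave like values. The median length was 7433, 8325 and 7036 bp for the genes holding a window of replicates 1 to 3. A gene class name, such as unc or egl with a number, was carried by 71.1% of host genes, against 56.4% of all protein-coding genes. Gene length was not matched in this comparison, and its part was not tested.

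A long gene offers more sequence, so regions were also counted per megabase (Mb) of gene span. The density was still higher in long genes. Genes of 1000 to 2000 bp held 1.94 genic regions per Mb (exact 95% Poisson interval 1.15 to 3.06) and genes of 2000 to 4000 bp held 4.51 (3.53 to 5.68). Genes of 4000 to 8000 bp held 9.37 (7.92 to 11.01), and genes of 8000 to 16000 bp held 20.1 (17.6 to 22.7).

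Beyond that length the intervals of the classes overlapped. The density was 17.5 per Mb (14.3 to 21.2) in genes of 16000 to 32000 bp and 23.4 (17.1 to 31.3) in the 46 genes of 32000 bp or more. Genes under 1000 bp stood apart from the trend with 7.42 per Mb (4.32 to 11.9), from 17 regions. Over all genes the density was 10.2 genic regions per Mb of gene span, against 30.3 shared regions per Mb outside genes. This contrast restates the split that chose the members and is not a result.

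The full lists showed the same shape in each replicate. Windows inside genes of 1000 to 2000 bp came to 7.21, 4.30 and 7.85 per Mb in replicates 1 to 3 (6.45 ± 1.89, SD, n = 3). In genes of 8000 to 16000 bp they came to 40.9, 29.03 and 37.4 per Mb (35.8 ± 6.08, SD, n = 3). The lowest replicate in the longer class lay above the highest in the shorter one. By the choice of members each list holds a window of every genic region, so the lists are not separate support. Of the windows inside genes, 42.7%, 64.2% and 46.8% in replicates 1 to 3 lay in shared regions.

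**Figure D2:**
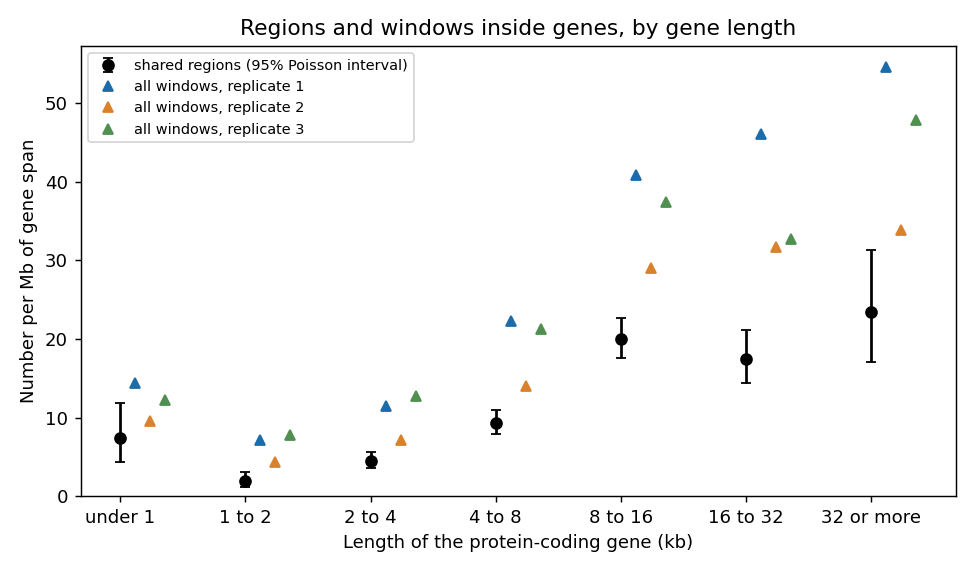
Genic regions per Mb of gene span (black, exact 95% Poisson interval) and all windows of each replicate per Mb (triangles, set slightly to the right) against the length class of the gene in kb. Genic regions number 1.94 per Mb in genes of 1 to 2 kb and 20.1 per Mb in genes of 8 to 16 kb, and all 3 replicates follow the same course.

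Read by gene, the share that held a genic region was 0.287% in genes of 1000 to 2000 bp (exact 95% binomial interval 0.170% to 0.453%) and 16.4% (14.3% to 18.7%) in genes of 8000 to 16000 bp. Of the 46 longest genes, 24 were hosts (52.2%, 36.9% to 67.1%). Over all 1464 genes of at least 8000 bp, 278 were hosts, or 18.99%. This share is the one to set beside any list of long genes below.

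Counted in bp, most genic regions lay away from the ends of their hosts, which were mostly long genes. The centre was a median of 2506 bp from the nearer end, with quartiles of 1059 and 4829 bp. Of the 633 regions, 372 lay at least 2000 bp inside (58.8%, exact 95% binomial interval 54.8% to 62.6%). Within 500 bp of an end lay 93 (14.7%, 12.03% to 17.7%), and 44 lay within 200 bp. These counts take no account of how much sequence lies at each depth. Per Mb of all protein-coding genes, 5.58 genic regions lay within 200 bp of an end and 4.58 at 200 to 500 bp. The density was 16.5 at 2000 to 4000 bp, 26.9 at 4000 to 8000 bp and 23.5 at 8000 bp or more. Relative to host length, the median position was 28.5% of the way from the nearer end, and 31.2% in hosts of at least 8000 bp, where even spacing would give 25%. The gene table carries no strand, exon or intron, so a 5' end could not be told from a 3' end and regions were not assigned to introns.

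Density was higher deep inside the gene than near its ends, also among long genes alone. In genes of at least 8000 bp, 8.54 genic regions per Mb lay within 200 bp of the nearer end (exact 95% Poisson interval 2.77 to 19.9). At 200 to 500 bp it was 5.69 per Mb (1.85 to 13.3), and both classes rest on 5 regions each. At 500 to 1000 bp it was 6.83 per Mb (3.28 to 12.6). At 1000 to 2000 bp it was 15.03 per Mb (10.9 to 20.2), at 2000 to 4000 bp 19.1 (15.7 to 23.01), and at 4000 to 8000 bp 26.9 (22.9 to 31.5). At 8000 bp or more it was 23.5 per Mb (18.1 to 30.02). The interval within 200 bp of an end overlaps that of every other class except 4000 to 8000 bp. In the full lists, 20.5, 10.2 and 19.1 windows per Mb of replicates 1 to 3 lay at 500 to 1000 bp in these genes, and 55.9, 41.1 and 46.9 at 4000 to 8000 bp. The lowest replicate of the deeper class exceeded the highest of the shallower one. Windows within 200 bp of an end of these genes came to 29.03, 11.95 and 20.5 per Mb. These windows again include those of the genic regions.

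**Figure D3:**
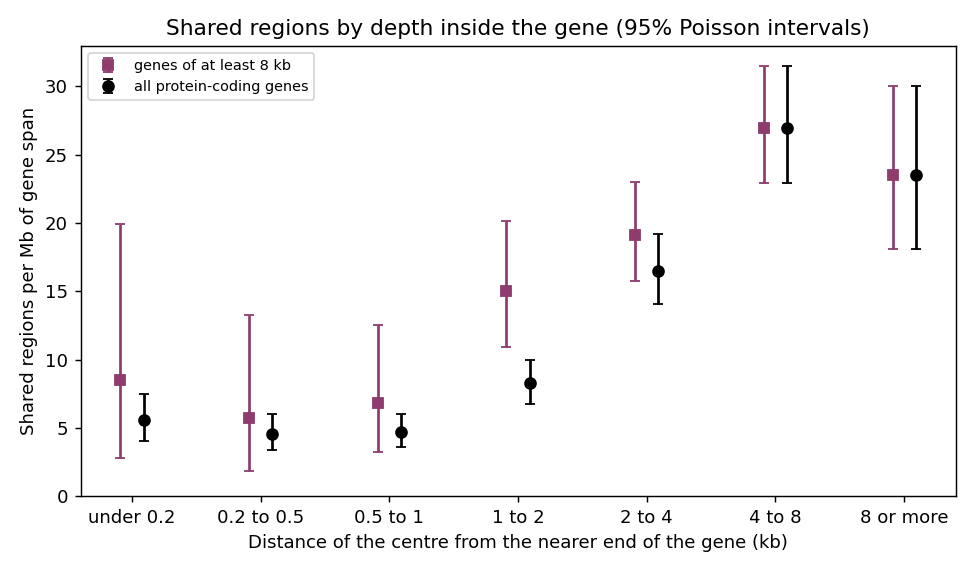
Genic regions per Mb of gene span, with exact 95% Poisson intervals, against the distance of the region's centre from the nearer gene end in kb, for genes of at least 8 kb (squares) and for all protein-coding genes (circles). In the long genes the value is 6.83 per Mb at 0.5 to 1 kb and 26.9 per Mb at 4 to 8 kb.

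The deepest genic regions lay in some of the longest genes. One in nhr-27, a nuclear hormone receptor gene spanning 102695 bp, had its centre 47845 bp from the nearer end and stood at lines 924, 741 and 1983. One in ttn-1, the gene of a giant titin-like muscle protein, lay 29617 bp from an end and stood at the very last line of the lists of replicates 1 and 3, with line 2830 in replicate 2. In hmr-1, the classical cadherin gene, a region 20088 bp from an end stood at lines 276, 248 and 1012. A region in lim-9, a gene of muscle attachment complexes, lay 17688 bp inside and was well placed, at lines 49, 137 and 550. The others of the 6 deepest lay in gap-2, which encodes a Ras GTPase-activating protein, and in daf-2, the insulin receptor gene.

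At the boundary, the choice of members turned on a few base pairs. The genic regions with centres nearest to a gene end lay 1 bp inside ints-4, 8 bp inside C27F2.9 and 10 bp inside ceh-38. The nearest left out lay 3 bp outside nprt-1, 4 bp outside rme-4 and 5 bp outside Y37F4.1. With the centre required to lie at least 200 bp inside, 594 regions and 470 hosts were left.

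Several genes held more than 1 genic region. Of the 512 hosts, 410 held 1, 73 held 2, 20 held 3 and 9 held 4. The share of all protein-coding genes with at least 2 was 0.511%, and with at least 3 it was 0.145%. Neighbouring regions of a gene had centres a median of 2643 bp apart, with quartiles of 1629 and 4686 bp and a smallest distance of 755 bp.

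Regions with windows in exactly 2 lists, which played no part in the choice of members, were also counted in host genes. Among hosts of at least 8000 bp, 28.4% held such a region, against 12.98% of the genes of that length without a genic region. Outside the gene, within 2000 bp of either end, a shared region lay beside 12.6% of these long hosts, against 10.5% of the long genes without a genic region. These shares are descriptions without a test. Hosts and other genes were not matched for length within this class. Hosts made up 16.4% of genes of 8000 to 16000 bp and 52.2% of genes of 32000 bp or more.

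The 9 genes with 4 genic regions were zfp-1, pqn-41, zig-8, crh-1 and T28D6.6 on chromosome III, unc-73 on I, vhp-1 on II, srt-50 on IV and pkc-1 on V. In zfp-1 the regions lay 3967, 5449, 8333 and 10253 bp from the end with the lower position. Their lines in replicates 1 to 3 were 33, 34 and 240, then 2181, 1767 and 2752, then 417, 162 and 365, and last 765, 856 and 587. A well placed region was thus followed by one in the lower part of all 3 lists.

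In pqn-41, a gene tied to the death of the linker cell, the 4 regions sat within the middle of the gene, at 15370 to 20652 bp of its 33612 bp. The best of them stood at lines 78, 52 and 374. In crh-1, the homologue of the cyclic AMP response factor CREB, they were spread from 5762 to 30938 bp of 36215 bp. The best placed by mean relative line had lines 413, 548 and 889. In zig-8, which encodes a small immunoglobulin-domain protein, the best had lines 48, 145 and 890. In vhp-1, a MAP kinase phosphatase gene, the best had lines 587, 604 and 911.

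The chemoreceptor-family gene srt-50 held 4 genic regions between 2602 and 6752 bp of its 13890 bp. The best of them stood at lines 1595, 1283 and 517. Of the 4, 3 had their lowest relative line in replicate 3, against 156 of all 633 genic regions (24.6%). This was picked out after the values were seen. The genes T28D6.6 and T28D6.5 overlap, and 3 regions were counted for both.

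Among the 20 genes with 3 genic regions, ast-1 held the best placed single region. At 7523 bp it was also shorter than each of the 9 above. Its regions at chrII:4134634-4135077 and chrII:4133423-4133855 stood at lines 31, 29 and 189 and at lines 27, 131 and 494. The one at chrII:4131307-4131746 stood at lines 859, 1811 and 1806. Of the other genes with 3, chosen for mention after their values were seen, lin-14 encodes a factor of developmental timing and tra-1 the sex determination factor of the GLI family. The genes mbk-2 and par-1 encode kinases of the early embryo, let-526 a subunit of a SWI/SNF chromatin remodeller and ncl-1 a regulator of nucleolus size.

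**Figure D4:**
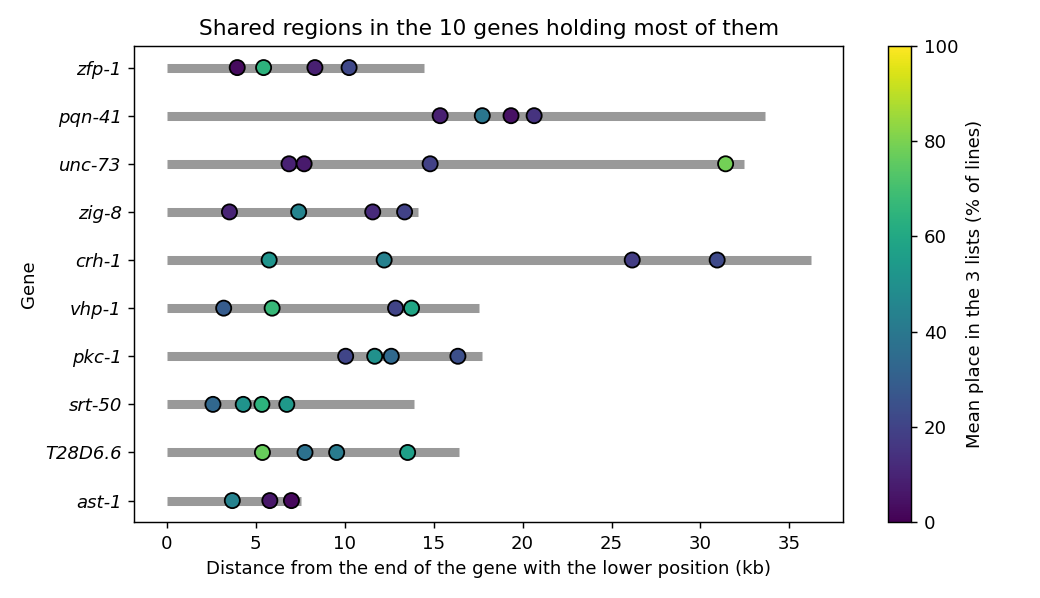
Position of genic regions inside the 9 genes holding 4 of them and in ast-1, which has the best placed single region among those holding 3, as distance in kb from the gene end with the lower position. Grey bars show the length of the gene and the colour of a point shows the mean relative line over the 3 lists in percent. In pqn-41 the 4 regions sit between 15.4 and 20.7 kb, and in crh-1 they are spread over the gene.

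Host genes were read against 29 gene lists, by the number of list members that held a genic region. Lists differ in gene length, so each count is also given beside the count that the host share of all genes of the same length class would give. Of the 29 lists, 20 had a higher share of hosts than the 2.56% of all protein-coding genes, and 15 had more hosts than their length classes would give. These counts are descriptions without a test.

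Among the lists, neuronal G protein signalling genes had the highest share. The lists were chosen with earlier results of these data known, so this place is a description and not separate support. The genes of this list form the pathways by which the G proteins Gq, Go and Gs set the release of transmitter. Of 21 genes, 11 were hosts (52.4%, exact 95% binomial interval 29.8% to 74.3%), where their lengths alone would give 2.77. With 22 genic regions, the list held 91.6 per Mb of gene span, against 10.3 over all genes. With the lists limited to their first 50% of lines, 6 of the 21 were hosts.

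The hosts span the G protein subunits, their regulators and their targets. Of the subunits, egl-30, the Gq alpha gene, had its region at lines 385, 617 and 354, 929 bp from an end. The gene gsa-1, for Gs alpha, had lines 1607, 1653 and 1153, and gpb-1, for G beta, held 2 regions, the better at lines 560, 662 and 388. Go alpha, encoded by goa-1, was not a host.

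The regulators egl-10 and eat-16 encode RGS proteins, which speed up the shutting off of G alpha. Their regions stood at lines 1655, 1319 and 1966 and at lines 2008, 1299 and 932. The region in eat-16 also lay in the overlapping gene ocrl-1. The arrestin gene arr-1, 3452 bp long, had a region at lines 146, 83 and 593.

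The list also holds unc-73 and pkc-1, which encodes a protein kinase C. The best placed regions of unc-73 stood at lines 58, 123 and 551 and at lines 187, 364 and 384. A further one had a mean relative line of 19.5%, and the fourth stood at lines 2453, 2225 and 3516. The fourth lay apart from the others both in place and in position, 1026 bp from the opposite end. The best placed of the 4 regions of pkc-1 had lines 475, 712 and 901.

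Downstream of Gs, the cyclic AMP branch was represented by the phosphodiesterase gene pde-4 and by the genes of both subunits of protein kinase A. In pde-4 the 3 regions stood at lines 340, 371 and 936, at 682, 1813 and 1082 and at 982, 1152 and 2623. In kin-1, the catalytic subunit gene, the 3 regions stood at lines 897, 640 and 1999, at 805, 581 and 2169 and at 798, 695 and 3020. The regulatory subunit gene kin-2 had a single one at lines 2487, 1323 and 3483. For kin-1, replicate 3 placed all 3 regions lower than the other lists did.

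In the other neuronal lists the counts lay nearer to those of their length classes. Pan-neuronal genes had 5 hosts of 21 (23.8%, exact 95% binomial interval 8.22% to 47.2%), where length alone would give 1.92. In the first 50% of lines 3 were hosts. The best placed was unc-119 at lines 244, 342 and 626, a gene also used as a transformation marker. Whether strain FQ237 carries it as a marker is not given in the labels, and its part was not tested. The others were egl-21, an enzyme gene of neuropeptide processing, at lines 652, 464 and 546, then unc-33, rab-3 and ric-4. Synaptic transmission genes had 3 of 28 hosts, sad-1 at lines 184, 97 and 579 and again rab-3 and ric-4, where length would give 2.46.

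Axon guidance and cell adhesion genes had 7 hosts of 36, against 6.55 from length. The best placed were hmr-1, then unc-53, a regulator of cell migration, ptp-3, a receptor tyrosine phosphatase gene, and sax-7, the L1-type adhesion gene. Ion channel genes of neurons and muscle had 3 of 27 against 4.52 from length, namely the T-type calcium channel gene cca-1, unc-79 and the ERG-type potassium channel gene unc-103. For lists of such long genes the raw share of hosts was high while the count stayed near that of other genes as long.

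Of 20 BAG neuron genes, ets-5 was the sole host (5%, exact 95% binomial interval 0.127% to 24.9%), where length would give 1.40. The ETS factor list had 2 hosts of 9, ets-5 and ast-1, against 0.366 from length. Of its 5 regions, 2 are those in the tagged gene. Guanylyl cyclase genes, which include sensors of respiratory gases, had 3 of 33 against 2.30 from length. These were gcy-28 with regions at lines 166, 60 and 1665 and at lines 875, 542 and 3088, gcy-22 at lines 451, 739 and 704, and gcy-36 at lines 496, 2096 and 394. Neuropeptide receptor genes had 5 of 106 and potassium channel genes 4 of 68, against 5.17 and 6.49 from length.

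Developmental pathways had small counts. Heterochronic genes, which time larval development, had 3 hosts of 14 against 1.45 from length, with 7 genic regions in all. The gene lin-28 had lines 210, 109 and 475, lin-14 held 3 regions with the best at a mean relative line of 11.95%, and lin-42, the homologue of the clock gene period, held 3 between lines 1221 and 2610. The insulin receptor and FOXO list also had 3 hosts of 14 against 1.20 from length, sgk-1, daf-2 and ist-1. Ras and Wnt pathway genes had 4 of 35 against 3.42, namely mpk-1, ksr-1, sos-1 and lit-1. Of 35 SynMuv and chromatin genes, set-25 alone was a host, against 1.76.

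Lists of markers for other tissues were read in the same way. Body wall muscle genes had 2 of 25, ttn-1 and tnt-2, germline genes had glh-2 alone of 30, and intestine genes had 0 of 15, against 3.18, 0.906 and 0.412 from length. Of 169 collagen genes of the cuticle, 3 were hosts against 1.47 from length, col-150, col-149 and col-85. The first of these stood at lines 15, 111 and 312.

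In families of short genes few hosts would come from length. Neuropeptide genes had 0 of 147 hosts against 1.18 from length, C-type lectin genes 0 of 239 against 2.28, and histone genes 0 of 72 against 0.327. Proteasome subunit genes had 0 of 31 against 0.172, and ribosomal protein genes had 1 of 78, rps-15A, against 0.335. With 0 of 147, a share of up to 2.48% remains within the exact 95% interval. Chemoreceptor genes had 4 of 1259 (0.318%, exact 95% binomial interval 0.0866% to 0.811%), while length would give 8.18. They were str-222 at lines 583, 98 and 138, then srt-50, sri-57 and srd-69. Reads can be split between near-identical gene copies, and the part of this in these counts was not tested.

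Of the transcription factor families, the nuclear hormone receptor and basic helix-loop-helix genes were near their counts from length. Nuclear hormone receptor genes had 5 of 269 hosts against 5.92 from length, with 8 genic regions in nhr-3, nhr-66, nhr-40, nhr-64 and nhr-27. Homeobox genes named ceh had 3 of 64 against 1.61, namely ceh-18, ceh-38 and ceh-44. Basic helix-loop-helix genes had sbp-1 alone of 38, against 0.973. Ligand-gated channel genes had 4 hosts (3.88%) against 4.51. Heat shock and chaperone genes had 4 of 53 against 1.12, and all of them were dnj genes, dnj-17, dnj-9, dnj-16 and dnj-25.

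**Figure D5:**
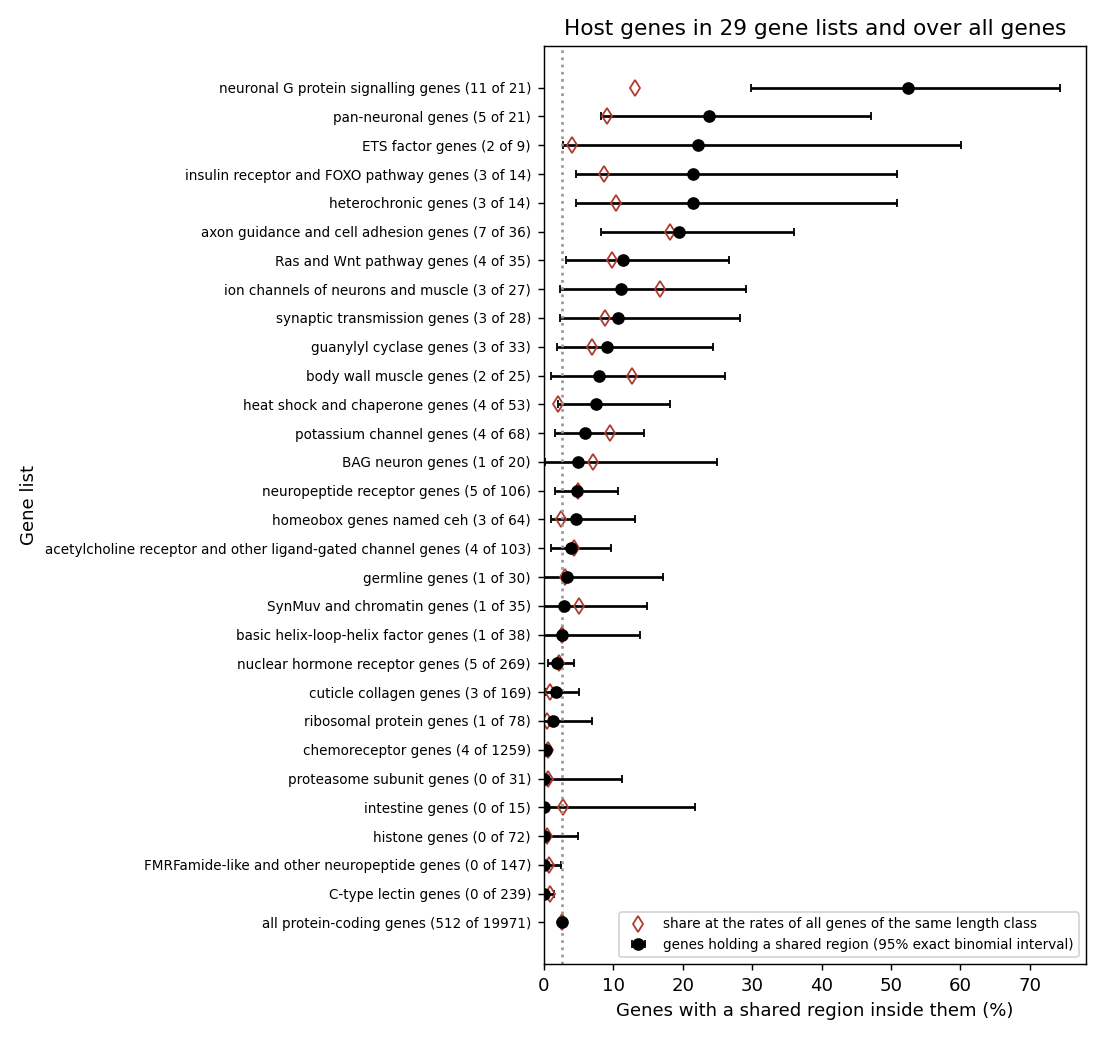
Percentage of the genes of each of 29 lists that hold a genic region (points, exact 95% binomial interval), with the count in brackets, beside the percentage that the host shares of all genes of the same length class would give (open diamonds). The dotted line and the lowest row show the 2.56% of all protein-coding genes. Neuronal G protein signalling genes stand highest with 11 of 21. The lists were chosen with earlier results of these data known.

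The share of shared regions that were genic was highest on chromosome III and lowest on X. On chromosome III, 132 of 286 shared regions were genic (46.2%, exact 95% binomial interval 40.3% to 52.1%), and on X 109 of 402 (27.1%, 22.8% to 31.7%). In the full lists, 44.98%, 40% and 42.5% of the windows on III lay inside genes in replicates 1 to 3 (42.5% ± 2.49, SD, n = 3), and 32.3%, 27.2% and 28.95% on X (29.5% ± 2.59, SD, n = 3). The lowest replicate on III lay above the highest on X. The lists include the windows of the genic regions, so they are not separate support. As in the opening, the genic shares describe the choice of members. Gene spans cover 68.6% of chromosome III and 54.4% of X.

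Counted per Mb of gene span, III held 13.97 genic regions (exact 95% Poisson interval 11.7 to 16.6), X held 11.3 (9.29 to 13.6) and II held 11.3 (9.27 to 13.6). The values were 9.53 (7.76 to 11.6) on I, 8.48 (6.80 to 10.4) on IV and 7.61 (6.16 to 9.31) on V. On this scale X stood with the higher chromosomes, while the intervals of III, II and X overlap one another.

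Some genic regions also overlapped a gene of another type. An annotated gene that is not protein-coding overlapped 96 genic regions (15.2%, exact 95% binomial interval 12.5% to 18.2%), against 263 of the 1155 other shared regions, or 22.8% (20.4% to 25.3%). The intervals do not overlap, but they cover counting error only, and no test was made. How much sequence such genes cover inside and outside protein-coding genes was not counted, and its part was not tested. Most of the overlapping genes were annotated as ncRNA, with 83 and 228 regions. A tRNA gene overlapped 4 genic regions, a snoRNA gene 3 and a snRNA gene 1.

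For 7 of these 8 regions the relative line was lowest in replicate 3, against 156 of all 633 genic regions (24.6%). A region in dhc-4, a dynein heavy chain gene, overlapped the snRNA gene W05B2.8 and stood at lines 1008, 1907 and 95. One in col-85 overlapped the tRNA gene T21B4.t1, at lines 743, 1775 and 462, one in sulp-3 overlapped F41D9.t3, at lines 1240, 1366 and 595, and one in C08D8.1 overlapped the snoRNA gene C08D8.3, at lines 1151, 1581 and 302. A region in F09A5.3 overlapped the microRNA gene mir-54 and stood at lines 452, 359 and 183. Other regions named by the same rule had their highest relative line in replicate 3. One in nhr-66 overlapped the antisense RNA gene anr-44, at lines 124, 100 and 942. One in let-526 overlapped the antisense RNA gene F48C1.15, at lines 423, 193 and 601. One in gei-4 overlapped the long non-coding RNA gene linc-90, at lines 983, 729 and 2352.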

How the data were processed

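For each ETS-5 precipitate the authors deposited 1 list of window positions, holding no score and no header. Per the submitters' processing notes, Bowtie2 and MACS2 were used, with no version or setting named. The sources used here do not give the build, peak threshold, control or any pooling of replicates, and another control would give other lists.

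Windows were merged at 1 bp of overlap, which matched bedtools 2.31.1 for all 1788 shared regions. A region's centre averages those of its windows, and its line in a list is the lowest of its windows there. Gene names and spans came from RefSeq WBcel235. Gene lists came from symbols, of which 7 matched no protein-coding gene, or from name patterns. The patterns for chemoreceptor, ligand-gated channel, neuropeptide receptor and potassium channel genes were corrected after the data were seen, because they could take in unrelated genes. The members and lists were chosen with earlier results of these data known. Named genes are the hosts of the 20 best placed regions, genes with at least 3 regions (at most 10), up to 4 hosts of each list, and the extremes of depth, of boundary distance and of difference between lists. The further hosts of the G protein, pan-neuronal and nuclear hormone receptor lists, and goa-1, were named outside this rule after their values were seen. Others are marked in the text. Genes under tRNA and similar genes were also named by rule, up to 8. Merging and assignment were checked on simulated lists. Exons, introns and ETS words could not be examined without a genome sequence. Analyses used Python 3.11.15, numpy 2.4.6, scipy 1.17.1 and matplotlib 3.10.9.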

Additional observations from a re-analysis of the deposited data

How the results depend on the processing

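Of 64 recomputed main values, 57 kept their direction and stayed within the limits set (1.5 times for counts, the 95% interval for shares, 1 SD over replicates for medians). Genic regions numbered 1145 in 867 hosts when 2 lists sufficed, and 266 in 237 hosts in the first 50% of lines. Their share of shared regions was 32.8% with the whole region inside the gene and 42.8% with genes of every type. Leaving out each replicate gave 664 to 895 genic regions, and the difference in line position ran from -1.13 to 3.38 points, turning sign without replicate 3. Host length, depth and the X share stayed within their limits under every setting for which they were recomputed. Of the 512 hosts, 237 were hosts in the first 50% of lines. In genes of at least 8000 bp the density exceeded that in genes under 2000 bp under each setting of overlap, replicates and lines, for example 27.8 against 4.92 per Mb without replicate 3. Counts of hosts per list stayed within 1.5 times in 165 of 203 cases, and counts of regions per named gene in 707 of 812. No paired analysis was possible because window lists of a single group were used. Depth is unknown, so a gene without a region may hold sites below the authors' threshold.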
